A study of Homo sapiens with 8 samples.

Results

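The genes described here are 9 genes of pericellular proteolysis and matrix remodelling: PLAU, PLAUR, PLAT and SERPINE2 of the plasminogen activator system, the matrix metalloproteinases MMP1 and MMP10, the receptor TNFRSF12A, the matrix protein THBS1 and the glypican GPC6. They were taken by gene symbol from 18132 genes that had a probe set naming a single symbol, and 9 of the 9 passed the filter on low values that left 10527 genes for testing. The 9 genes were chosen with earlier results of these data known. Their counts and medians beside those of all genes therefore describe the 9 genes and are not a test of them as a set. The array carried 34 probe sets for them, of which 24 passed the same filter. For each gene the probe set of highest average signal over the 8 arrays was used, and the gene's other probe sets served as a check.

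H3122 is a lung adenocarcinoma cell line that carries the EML4-ALK fusion, and LR2 and LR3 are sublines of it that are resistant to the ALK inhibitor ceritinib. All cells were grown in RPMI medium with 10% fetal bovine serum, and treated cells received 1000 nM of crizotinib or ceritinib, both ALK inhibitors, for 6 h. Parental cells and LR2 were each profiled untreated, with crizotinib and with ceritinib, and LR3 was profiled untreated and with ceritinib, which gives 8 arrays with 1 array per condition. The study compared the parental line with its resistant derivatives. LR2 and LR3 are 1 line each, so a line difference describes that subline, and how the sublines were derived is not given in the sources used here. No array repeats a condition, so the p-values measure the spread that an additive model of line and agent leaves among these 8 arrays, and nothing in the labels says that the RNA came from separately grown cultures.

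Plasminogen activators are serine proteases that cut plasminogen into plasmin, which degrades fibrin and activates other proteases. Urokinase, made from PLAU, acts at the cell surface when bound to its receptor PLAUR, whereas tissue-type activator, made from PLAT, acts mainly on fibrin, and the serpin SERPINE2 (protease nexin-1) inhibits both activators and thrombin. MMP1 is an interstitial collagenase and MMP10 a stromelysin, and both are secreted as inactive proenzymes. TNFRSF12A (Fn14) is the receptor for the cytokine TWEAK, THBS1 encodes thrombospondin-1, a matricellular glycoprotein that can activate latent TGF-beta, and GPC6 encodes a heparan sulfate proteoglycan anchored to the membrane by a lipid. Several of these genes are known as transcriptional outputs of growth factor and ERK signalling in epithelial tumours, through AP-1 and ETS factors.

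MMP10 and MMP1 lie next to each other in the MMP cluster of chromosome 11, between MMP8 and MMP3, and the other members are on separate chromosomes (PLAU on 10, PLAUR on 19, PLAT on 8, SERPINE2 on 2, TNFRSF12A on 16, THBS1 on 15 and GPC6 on 13). The promoter windows searched, from RefSeq, were 8 windows of 6 of the 9 genes. No window of MMP1, TNFRSF12A or PLAT was searched, so the motif counts below do not cover these genes. The 250 bases before each annotated transcription start were searched on both strands for the AP-1 site TGANTCA, the ETS core AGGAA and the TATA box TATAAA. Windows of 3 genes are printed because these genes differed between lines or were lower after an inhibitor, and because they differ in whether they hold AP-1 letters. Each is given 5′ to 3′ along the gene's strand in GRCh38.p14, with capitals marking AP-1 and TATA box letters: MMP10 at chr11:102780629-102780878 on the minus strand, PLAUR at chr19:43670170-43670419 on the minus strand and THBS1 at chr15:39580829-39581078 on the plus strand.
MMP10: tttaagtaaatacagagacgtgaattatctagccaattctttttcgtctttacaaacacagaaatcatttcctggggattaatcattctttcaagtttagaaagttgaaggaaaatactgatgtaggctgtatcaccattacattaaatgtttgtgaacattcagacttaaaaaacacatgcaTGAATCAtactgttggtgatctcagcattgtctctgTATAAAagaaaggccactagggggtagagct
PLAUR: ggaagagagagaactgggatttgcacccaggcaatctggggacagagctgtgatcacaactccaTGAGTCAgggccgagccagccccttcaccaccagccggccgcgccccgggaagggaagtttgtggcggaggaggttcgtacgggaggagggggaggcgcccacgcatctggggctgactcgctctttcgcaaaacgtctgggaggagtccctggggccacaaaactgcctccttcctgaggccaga
THBS1: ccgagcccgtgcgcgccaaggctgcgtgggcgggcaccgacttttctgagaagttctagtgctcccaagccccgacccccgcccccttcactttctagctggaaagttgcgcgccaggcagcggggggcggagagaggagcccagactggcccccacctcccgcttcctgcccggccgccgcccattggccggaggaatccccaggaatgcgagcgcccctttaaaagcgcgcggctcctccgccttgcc
AP-1 letters occurred in 2 of the 8 windows: TGAATCA in MMP10, from 67 to 61 bases before the start, and TGAGTCA in PLAUR, from 186 to 180 bases before it. Across all 34943 windows of this length in the table, 6.59% held TGANTCA. The MMP10 window also held TATAAA from 31 to 26 bases before the start, and the GPC6 window held it from 155 to 150 bases before. Of all windows, 10.8% held TATAAA. The ETS core occurred in 5 of the 8 windows, those of PLAUR, MMP10, THBS1, GPC6 and 1 of the 2 PLAU windows, against 56.8% of all windows. No motif overlapped another in the printed windows. These matches describe the letters alone.

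Values are log2 probe set signals, so a difference of 1 is a factor of 2, and signals of different probe sets are not set against each other. A signal was counted as above the floor when it passed 5.36, the median of all values. This floor is a filter and not a measured background, so where a line lies wholly under it a fold is given as a bound, from matched agents with every signal under the floor set to the floor. Array medians lay between 5.31 and 5.36 on 7 arrays, and the LR2 ceritinib array stood apart at 5.46. Values that rest on that array are uncentred unless centring or quantile normalization is named. The labelled lung adenocarcinoma identity was checked against markers: 12 of 12 epithelial and lung markers were above the floor, with list medians from 10.39 to 10.85, while 0 of 10 fibroblast markers were, with list medians from 3.20 to 3.42. Of 7 leukocyte markers CD68 alone passed, and of 7 endothelial markers CDH5, VWF and KDR did. Of the epithelial markers, MUC1 and CDH1 were lower in both resistant lines, by 0.75 and 0.30 in LR2 and by 0.84 and 0.53 in LR3, while NAPSA was higher in LR2 and KRT19 in LR3. The endothelial marker KDR was also lower, by 0.23 in LR2 (adjusted p = 0.0465) and by 0.44 in LR3 (adjusted p = 0.00795), and its part in the line differences of the 9 genes was not tested. In bulk RNA, fewer cells making a transcript and less transcript per cell cannot be told apart.

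**Figure D1:**
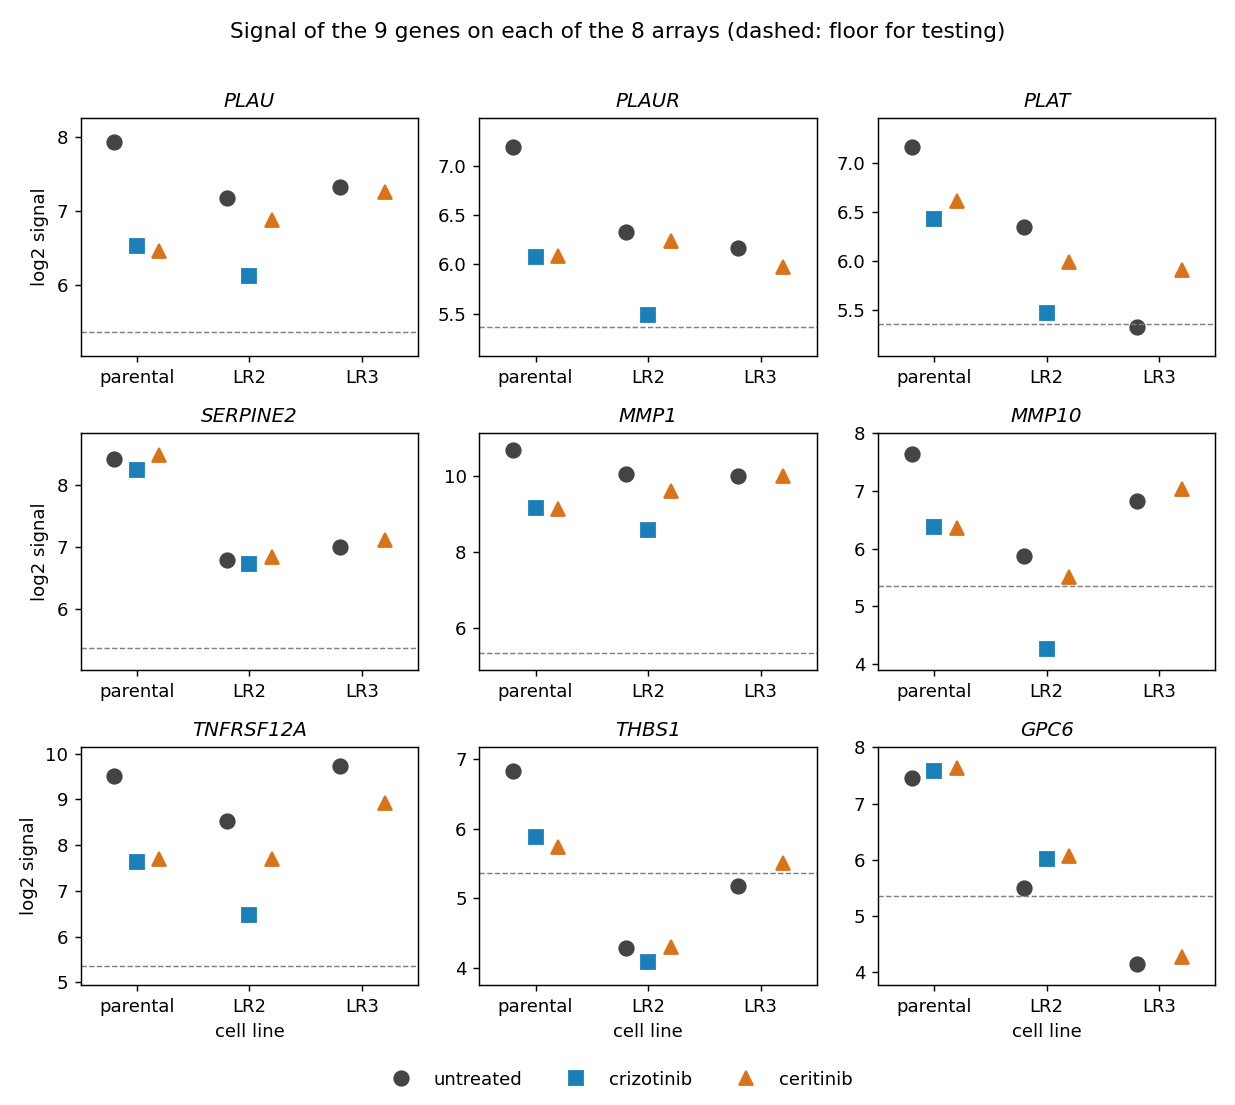
Log2 signal of each of the 9 genes (y axis, scaled per gene) on the 8 arrays, by line (x axis) and agent (grey circle untreated, blue square crizotinib, orange triangle ceritinib); the dashed line is the floor of 5.36. SERPINE2 and GPC6 separate by line, whereas PLAU, PLAUR and MMP1 are highest in untreated parental cells and lowest in LR2 with crizotinib.

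In the comparison of LR2 with parental cells over the 3 agents, 6 of the 9 genes were lower and 0 were higher in LR2. SERPINE2 was 3.02-fold, GPC6 3.23-fold, MMP10 2.97-fold, PLAT 1.74-fold and TNFRSF12A 1.64-fold lower, and THBS1, under the floor on all 3 LR2 arrays, at least 1.73-fold, while PLAU, PLAUR and MMP1 did not pass the test. Calls are limma tests of an additive model of line and agent, with Benjamini-Hochberg adjustment over 10527 genes and a threshold of 0.05, and of all genes tested 9.68% were called lower and 12.8% higher in LR2. The median difference of the 9 genes was -0.80 on the log2 scale, against 0.02 over all genes tested. Leaving out 1 array moved the count of members from 3, without the parental or the LR2 crizotinib array (10.9% of all genes called in either direction), to 9, without the parental ceritinib array (19.4%), against 22.5% of all genes in the fit of 8 arrays. Without the LR2 ceritinib array it was 5 (12.8%), PLAT being lost.

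In LR3 against parental cells, 4 of the 9 genes were lower and 0 were higher. SERPINE2 was 2.60-fold lower, PLAT 2.47-fold and THBS1 1.89-fold, the last 2 with the untreated LR3 array under the floor, and GPC6, under it on both LR3 arrays, was at least 4.55-fold lower. Of all genes tested, 12.1% were called lower and 9.53% higher in LR3, and the median difference was -0.62 for the 9 genes against 0.01 for all. Both line comparisons use the same parental arrays. When only the 4 matched arrays of LR3 and parental cells entered the fit, 0 of the 9 genes and 0 of all genes were called by limma, with 3092 genes at an unadjusted p under 0.05, against 3794 in the fit of all 8 arrays. Leaving out 1 array gave 3 to 7 of the 9, with 7 without the parental ceritinib array (17.2% of all genes called in either direction, against 21.6% in the fit of 8 arrays).

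**Figure D2:**
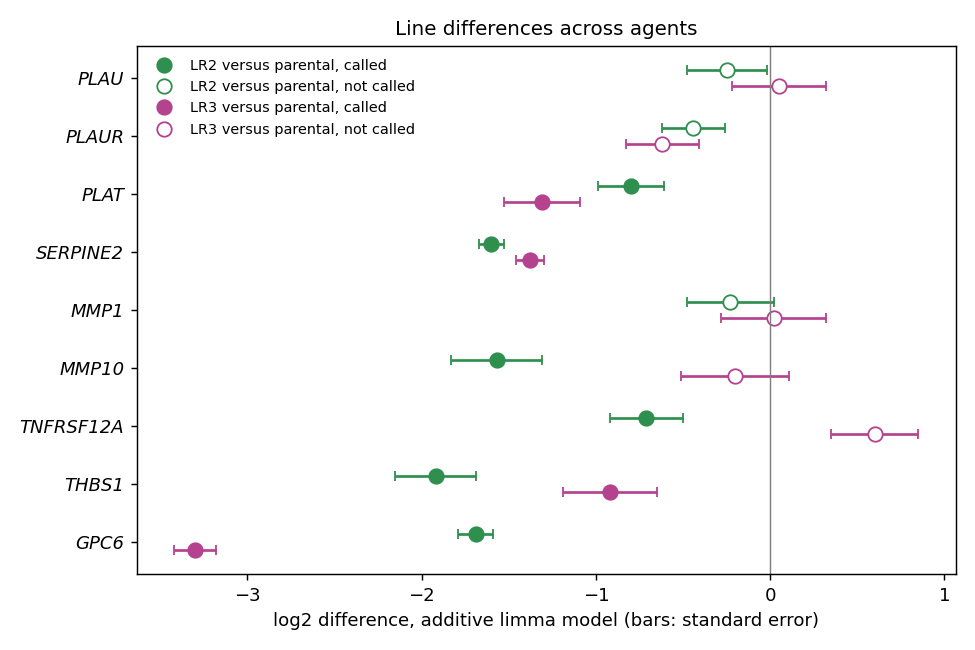
Log2 difference of LR2 (green) and LR3 (magenta) from parental cells for each gene (x axis), from the additive limma model over 8 arrays, with bars for the standard error and filled circles for called differences. GPC6 lies farthest to the left in LR3 at -3.30, and TNFRSF12A lies on opposite sides of 0 in the resistant lines.

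PLAU, which encodes urokinase, showed its highest signal in untreated parental cells. Its log2 signal was 7.93 in untreated parental cells, 6.52 with crizotinib and 6.45 with ceritinib. In LR2 the same conditions gave 7.18, 6.11 and 6.87, and LR3 gave 7.32 untreated and 7.25 with ceritinib. The lines overlapped, because both treated parental arrays lay below both LR3 arrays and below 2 of the 3 LR2 arrays. In parental cells the signal was 2.66-fold lower with crizotinib and 2.79-fold lower with ceritinib than untreated. In LR2 it was 2.10-fold lower with crizotinib and 1.24-fold lower with ceritinib, and in LR3 1.05-fold lower with ceritinib. Across agents the difference from parental cells was -0.25 ± 0.23 (SE) in LR2, with an adjusted p of 0.49, and 0.05 ± 0.27 in LR3, with an adjusted p of 0.911. Neither was called in the fit of all 8 arrays, and without the parental ceritinib array the LR2 difference was -0.62, with an adjusted p of 0.00539. The 3 PLAU probe sets gave -0.31 to -0.20 in LR2 and -0.11 to 0.22 in LR3.

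The signal of PLAUR, the urokinase receptor, was 7.20, 6.08 and 6.09 in untreated, crizotinib-treated and ceritinib-treated parental cells. It was 6.33, 5.48 and 6.24 in LR2 in the same order, and 6.17 and 5.97 in LR3 untreated and with ceritinib. Untreated parental cells stood 0.87 above the next array, and the treated parental arrays lay among those of the resistant lines. Only 2 of the 7 gaps between neighbours in the order of arrays exceeded the residual SD of 0.33. Against untreated cells of the same line, PLAUR was 2.17-fold lower with crizotinib and 2.16-fold lower with ceritinib in parental cells, 1.8-fold and 1.06-fold lower in LR2, and 1.15-fold lower with ceritinib in LR3. The line differences of -0.44 ± 0.18 in LR2 (adjusted p = 0.116) and -0.62 ± 0.21 in LR3 (adjusted p = 0.0716) were not called. Both became calls without the parental ceritinib array, at -0.73 (adjusted p = 0.00094) and -0.98 (adjusted p = 0.000678). The 5 PLAUR probe sets were below 0 in both lines. The probe set used carries a suffix that marks probes shared with other transcripts, and the brightest PLAUR probe set without such a suffix was called lower in both, at -0.29 (adjusted p = 0.0285) in LR2 and -0.52 (adjusted p = 0.00609) in LR3. The mean of all PLAUR probe sets was called in LR3 (-0.63, adjusted p = 0.0281). In untreated, crizotinib-treated and ceritinib-treated parental cells, the brightest probe set without such a suffix gave 6.28, 5.93 and 6.18. Its fitted difference between inhibitor-treated and untreated parental cells was -0.23. Over the 5 PLAUR probe sets this difference ran from -1.45 to -0.23.

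PLAT, the tissue-type activator, gave 7.16, 6.43 and 6.61 in untreated, crizotinib-treated and ceritinib-treated parental cells, and 6.35, 5.47 and 5.99 in LR2. In LR3 the signal was 5.33 untreated, just below the floor, and 5.91 with ceritinib. The 3 parental arrays lay above the 5 arrays of the resistant lines without overlap, although the lowest parental array exceeded the highest LR2 array by less than the residual SD of 0.36. PLAT was lower by 0.80 ± 0.19 in LR2 (adjusted p = 0.0211) and by 1.31 ± 0.22 in LR3 (adjusted p = 0.00654). The LR2 call was lost without the untreated parental array (-0.65, adjusted p = 0.0774) or the LR2 ceritinib array (-0.73, adjusted p = 0.0982). It was also lost without the parental or the LR2 crizotinib array (-0.71 and -0.72), either of which leaves 1 crizotinib array. Dropping the agent term or using inhibitor or none as 1 term lost it as well (adjusted p = 0.0883 and 0.0515). The LR3 difference was still called without either LR3 array, at -0.79 without the untreated and -1.82 without the ceritinib array. All 7 PLAT probe sets were lower in both lines, by 0.23 to 1.0 in LR2 and by 0.58 to 2.15 in LR3. After crizotinib PLAT was 1.66-fold lower in parental cells and 1.84-fold lower in LR2, and after ceritinib 1.46-fold lower in parental cells and 1.28-fold lower in LR2. In LR3 it was at least 1.46-fold higher with ceritinib.

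SERPINE2, the serpin that inhibits both activators, separated the lines with little spread. Parental cells gave 8.41, 8.24 and 8.48 untreated, with crizotinib and with ceritinib. LR2 gave 6.79, 6.72 and 6.83, and LR3 gave 7.0 untreated and 7.10 with ceritinib. The 3 lines did not overlap: parental cells were highest, LR3 next and LR2 lowest, with a gap of 1.14 between the lowest parental and the highest LR3 array and a residual SD of 0.04. SERPINE2 was lower by 1.60 ± 0.07 in LR2 (adjusted p = 1.62e-05) and by 1.38 ± 0.08 in LR3 (adjusted p = 6.27e-05). The LR2 call held under all 18 alternative settings, and the LR3 call held under 17 of 18, the exception being the 4 matched arrays alone (-1.39, adjusted p = 0.0966). LR3 was 0.22 ± 0.08 above LR2, which was not called (adjusted p = 0.0898). It was called after array centring (0.28, adjusted p = 0.0473) and with the brightest SERPINE2 probe set that carries no shared-probe suffix (0.43, adjusted p = 0.0297). The 6 SERPINE2 probe sets were lower in both lines, by 0.15 to 1.93 in LR2 and by 0.29 to 1.49 in LR3, and the 4 of them that passed the filter were called in both. Its 5 differences between treated and untreated cells of a line lay between -0.17 and 0.10, and neither agent was called (adjusted p = 0.444 for crizotinib and 0.605 for ceritinib).

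MMP1, the collagenase, had signals of 10.67, 9.16 and 9.12 in untreated, crizotinib-treated and ceritinib-treated parental cells. LR2 had 10.06, 8.59 and 9.61 in that order, and LR3 had 10.00 untreated and 10.01 with ceritinib. As for PLAU, untreated parental cells were highest and LR2 with crizotinib lowest, and the lines overlapped. MMP1 was 2.85-fold lower with crizotinib and 2.93-fold lower with ceritinib than untreated in parental cells. In LR2 it was 2.77-fold lower with crizotinib and 1.37-fold lower with ceritinib, and in LR3 the ceritinib array differed from the untreated one by 0.01. Across agents the line differences were -0.23 ± 0.25 in LR2 (adjusted p = 0.565) and 0.02 ± 0.30 in LR3 (adjusted p = 0.964). Without the parental ceritinib array both were called lower, at -0.65 (adjusted p = 0.00458) and -0.50 (adjusted p = 0.0333). The second MMP1 probe set gave -0.20 in LR2 and 0.07 in LR3.

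MMP10, the stromelysin, is represented by 1 probe set. It gave 7.64, 6.37 and 6.35 in untreated, crizotinib-treated and ceritinib-treated parental cells, and 5.88, 4.26 and 5.51 in LR2. LR3 gave 6.83 untreated and 7.04 with ceritinib. The LR2 arrays lay below all others, and its crizotinib array was the only one below the floor, while LR3 lay within the range of the parental arrays. MMP10 was 2.97-fold lower in LR2 (log2 difference -1.57 ± 0.26, adjusted p = 0.00525), or 2.30-fold over matched agents with the LR2 crizotinib array set to the floor. This call was lost without the agent term (-1.57, adjusted p = 0.0555). It was also lost without the parental or the LR2 crizotinib array (-1.30 in each case), either of which leaves 1 crizotinib array. In LR3 the difference was -0.20 ± 0.31 (adjusted p = 0.694), and without the parental ceritinib array it was -0.73 (adjusted p = 0.0126). Against untreated cells it was 2.41-fold lower with crizotinib and 2.45-fold lower with ceritinib in parental cells, and at least 1.43-fold lower with crizotinib and 1.29-fold lower with ceritinib in LR2. In LR3 it was 1.16-fold higher with ceritinib.

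TNFRSF12A, the TWEAK receptor, also has 1 probe set and was the only member called for an agent. Parental cells gave 9.51, 7.63 and 7.69 untreated, with crizotinib and with ceritinib. LR2 gave 8.53, 6.48 and 7.69 in that order, and LR3 gave 9.72 untreated and 8.91 with ceritinib. In each line the untreated array was highest, and LR2 with crizotinib stood 1.15 below the next array. In the additive limma fit of all 8 arrays TNFRSF12A was 3.68-fold lower with crizotinib than untreated (-1.88 ± 0.25, adjusted p = 0.0238), where 0.94% of all genes were called lower. Without the untreated array of parental cells or of LR2 that call was lost, at -1.66 (adjusted p = 0.0977) and -1.93 (adjusted p = 0.0761). In both refits 0 of all genes were called, so the loss is not particular to TNFRSF12A. Leaving out the parental or the LR2 crizotinib array leaves 1 crizotinib array. There too the call was lost, with differences of -2.21 and -1.55. With ceritinib the difference was -1.16 ± 0.21 (adjusted p = 0.0661), and the ceritinib array was below the untreated array in 3 of 3 lines.

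Between lines, TNFRSF12A was lower by 0.71 ± 0.21 in LR2 (adjusted p = 0.0445). That call lay close to the threshold. It was lost without the untreated parental array (adjusted p = 0.154), the parental crizotinib array (0.247), the untreated LR2 array (0.145), the LR2 crizotinib array (0.247) or either LR3 array (0.0501), with differences from -0.71 to -0.49, and without the filter on low values (adjusted p = 0.057), without the agent term (0.499), with inhibitor or none as 1 term (0.127) or with the matched arrays alone (0.0501). In LR3 it was 0.60 ± 0.25 above parental cells, which was not called (adjusted p = 0.118). LR3 was 2.49-fold above LR2 (1.31 ± 0.25, adjusted p = 0.0086). The last call was lost without the untreated LR2 array (1.27, adjusted p = 0.0513) or the LR3 ceritinib array (1.05, adjusted p = 0.106), and without the agent term (1.75, adjusted p = 0.135).

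THBS1, which encodes thrombospondin-1, was above the floor on 4 of the 8 arrays. Its signal was 6.83, 5.88 and 5.74 in untreated, crizotinib-treated and ceritinib-treated parental cells, and 4.29, 4.09 and 4.30 in LR2. In LR3 it was 5.17 untreated and 5.50 with ceritinib. The lines did not overlap: parental cells were highest, LR3 lay around the floor and all LR2 arrays were below it. THBS1 was called lower in LR2 (fitted difference -1.92 ± 0.23, adjusted p = 0.00122), and with LR2 set to the floor it was at least 1.73-fold lower. The gene passed the filter through the other lines. The call held under the 16 alternative settings that kept it. In LR3 it was 1.89-fold lower (-0.92 ± 0.27, adjusted p = 0.0436). This call was lost under 11 of 16 settings: it did not survive array centring (adjusted p = 0.052) and was lost without the untreated parental array (-0.46, adjusted p = 0.0904), the parental crizotinib array (-0.95, 0.096), the untreated, crizotinib or ceritinib array of LR2 (-0.95, -0.95 and -0.90, with adjusted p-values of 0.0575, 0.096 and 0.068) or the untreated LR3 array (-0.48, 0.363). In parental cells THBS1 was 1.93-fold lower with crizotinib and 2.13-fold lower with ceritinib. Its 4 other probe sets were below the floor on every array and were lower in both lines, by 0.12 to 1.37 in LR2.

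GPC6, the glypican, had the largest difference of the 9 genes between LR3 and parental cells. Parental cells gave 7.46, 7.58 and 7.63 untreated, with crizotinib and with ceritinib. LR2 gave 5.51, 6.01 and 6.07, and LR3 gave 4.15 untreated and 4.27 with ceritinib. The lines fell in 3 separate groups, and both LR3 arrays were below the floor. By the fit, GPC6 was lower by 1.69 ± 0.10 in LR2 (adjusted p = 5.99e-05) and by 3.30 ± 0.12 in LR3 (adjusted p = 9.06e-06), and LR3 was lower than LR2 by 1.61 ± 0.12 (adjusted p = 0.000155). With LR3 set to the floor, GPC6 was at least 4.55-fold lower than in parental cells and at least 1.35-fold lower than in LR2. The gene passed the filter through parental cells and LR2. The LR2 call held under all 16 alternative settings that kept the gene, and the LR3 call under 15 of 16, the exception being the matched arrays alone (adjusted p = 0.0788). Of the 4 probe sets, 2 passed the filter and both were called lower in both lines. The others were below the floor, and 1 of them gave 0.05 in LR2. After an inhibitor GPC6 was 1.09-fold to 1.47-fold higher in parental cells and LR2, both LR3 arrays being under the floor, and neither agent was called (adjusted p = 0.216 for crizotinib and 0.183 for ceritinib).

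**Figure D3:**
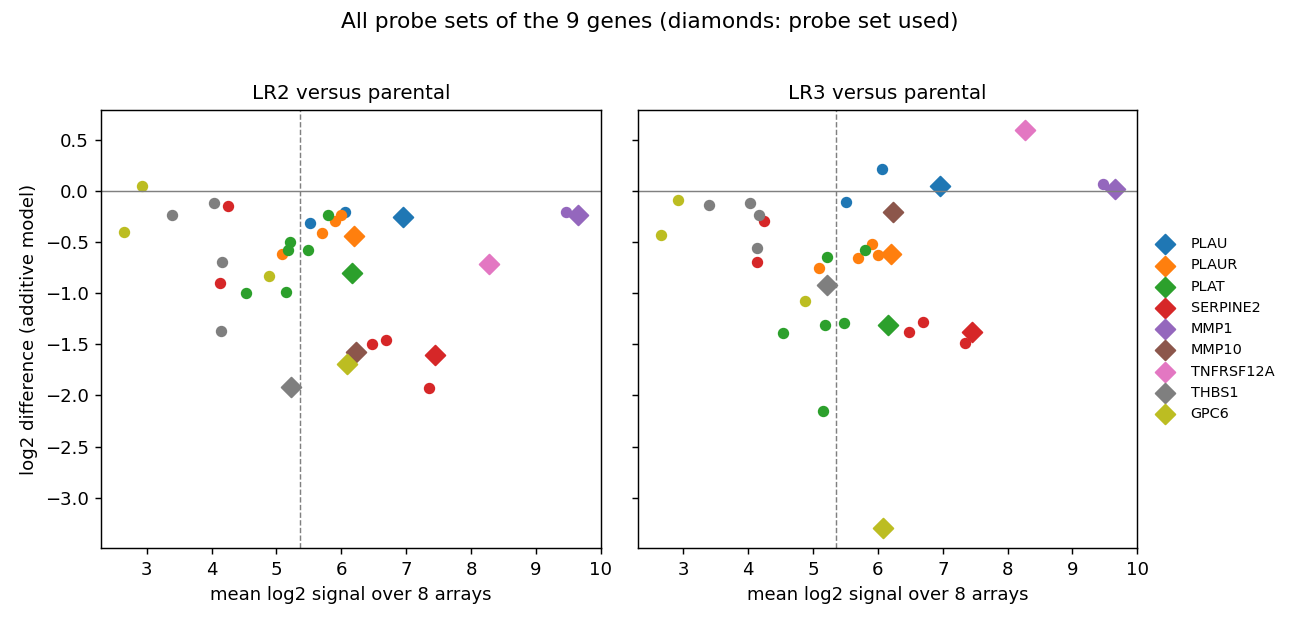
Log2 difference of LR2 (left) and LR3 (right) from parental cells for all 34 probe sets of the 9 genes (y axis) against the mean log2 signal of each probe set (x axis), with diamonds for the probe set used, circles for the others, colours for genes and a dashed line at the floor of 5.36. In LR2 all but 1 probe set, a GPC6 probe set at 0.05, lie below 0, and in LR3 the probe sets above 0 belong to PLAU, MMP1 and TNFRSF12A.

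The inhibitors were next compared with no agent. In the additive limma fit of all 8 arrays, crizotinib gave 1 call among the 9 genes, TNFRSF12A. The other differences reached -1.32 ± 0.30 for MMP1 and -0.92 ± 0.21 for PLAUR (adjusted p = 0.0524 for both), -1.27 ± 0.31 for MMP10 (adjusted p = 0.06) and -1.10 ± 0.27 for PLAU (adjusted p = 0.0604). LR3 received no crizotinib, but its untreated and ceritinib arrays enter this fit and shift the crizotinib differences. Without either LR3 array they were -1.49 for MMP1, -1.44 for MMP10 and -1.24 for PLAU. The median of the 9 genes was -0.92, against 0.02 over all genes. SERPINE2 gave -0.11 ± 0.08, PLAT -0.63 ± 0.22, THBS1 -0.43 ± 0.27 and GPC6 0.27 ± 0.12. The count depends on single arrays: it was 0 of 9, with 0 of all genes called by limma and 1244 to 1917 at an unadjusted p under 0.05, without the untreated or the crizotinib array of parental cells or of LR2. It was 6 of 9 without the parental ceritinib array (1529 of 10527 genes called in either direction), PLAU, PLAUR, PLAT, MMP1 and MMP10 joining TNFRSF12A, and 5 of 9 without either LR3 array (5.08%), against 3.76% of all genes in the fit of 8 arrays. Ceritinib gave 0 calls among the 9 genes and 0% among all genes by limma, with 2017 genes at an unadjusted p under 0.05. Beside TNFRSF12A, its differences were -0.62 ± 0.23 for PLAU, -0.47 ± 0.18 for PLAUR, -0.11 ± 0.19 for PLAT, 0.07 ± 0.07 for SERPINE2, -0.66 ± 0.25 for MMP1, -0.48 ± 0.26 for MMP10, -0.25 ± 0.23 for THBS1 and 0.28 ± 0.10 for GPC6. Ceritinib against crizotinib also gave 0 calls (0% called higher, 637 genes at an unadjusted p under 0.05), with differences from 0.01 ± 0.12 for GPC6 through 0.18 for SERPINE2 and THBS1, 0.45 for PLAUR, 0.48 for PLAU, 0.52 for PLAT and 0.66 for MMP1 to 0.72 ± 0.25 for TNFRSF12A and 0.79 ± 0.31 for MMP10. Without the parental ceritinib array PLAU, PLAUR, MMP1, MMP10 and TNFRSF12A were called (0.81 to 1.33), 5 of 9 against 3.81% of all genes called in either direction.

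The additive model averages each agent over the lines, so the difference within each line is also given. In parental cells, 5 of the 9 genes (PLAU, PLAUR, MMP1, MMP10 and TNFRSF12A) were at least 2-fold lower with crizotinib than untreated, where 0.741% of all genes were. With ceritinib these and THBS1 were, 6 of 9 against 0.902% of all genes. In LR2, crizotinib gave 4 of 9 (PLAU, MMP1, TNFRSF12A and MMP10, the last under the floor with crizotinib) against 0.693%. LR2 with ceritinib gave 0 of 9 against 0.0095%, and LR3 with ceritinib 0 of 9 against 0%. Each pair is 1 array against 1 array, with no replicate check, and the comparisons within a line share their untreated array. The median over the 9 genes was -1.12 and -1.11 for crizotinib and ceritinib in parental cells, -0.88 and -0.31 in LR2 and 0.10 for ceritinib in LR3, while the median over all genes tested lay between 0.01 and 0.10.

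**Figure D4:**
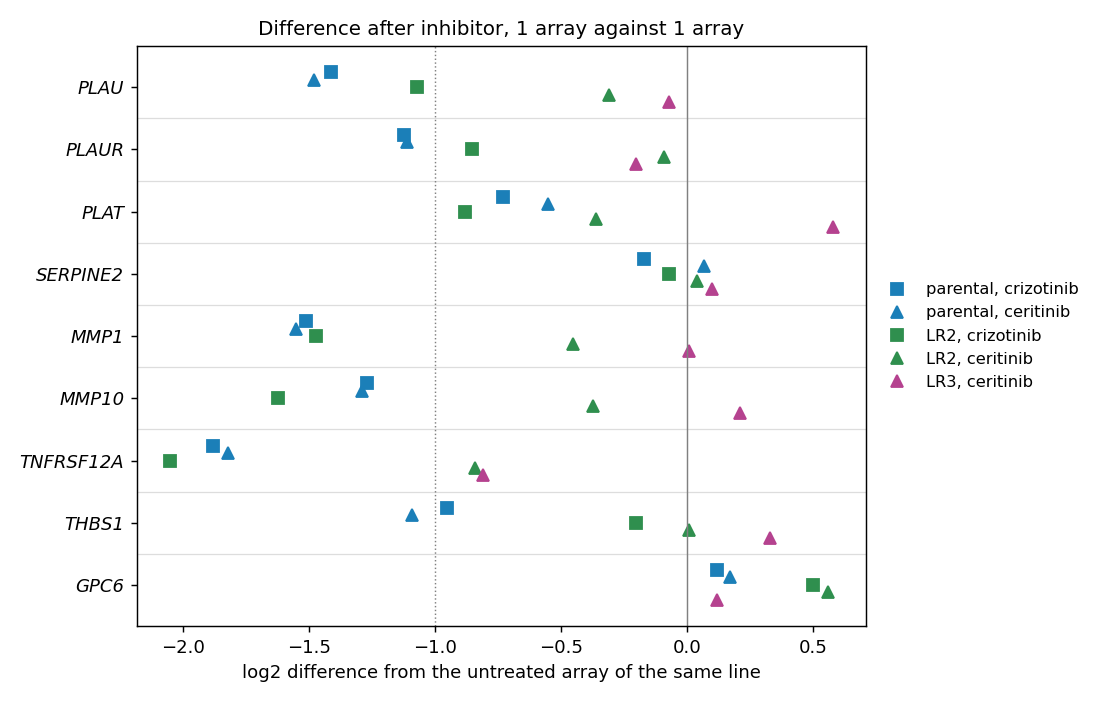
Log2 difference of each treated array from the untreated array of the same line (x axis) for the 9 genes, with squares for crizotinib and triangles for ceritinib in parental cells (blue), LR2 (green) and LR3 (magenta); the dotted line marks a 2-fold lower signal. Squares and triangles lie within 0.24 of each other in parental cells. In LR2 the ceritinib triangle lies to the right of the crizotinib square for all 9 genes, from 0.06 for GPC6 to 1.25 for MMP10.

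The 2 inhibitors were compared at the same dose and time within each line, 1 array against 1 array and so without a test. In parental cells ceritinib differed from crizotinib by -0.14 to 0.24 over the 9 genes. In LR2 the ceritinib array was above the crizotinib array for 9 of 9 genes, where only 27.2% of all genes were below it. The median difference of the 9 genes was 0.76, against 0.09 over all genes. MMP1, MMP10 and TNFRSF12A were at least 2-fold higher, by log2 differences of 1.02, 1.25 and 1.21, where 0.503% of all genes were, and the MMP10 crizotinib array was under the floor. The median of the LR2 ceritinib array was 0.12 above those of the other LR2 arrays. After each array was centred on its median the differences were 0.90 for MMP1, 1.13 for MMP10 and 1.09 for TNFRSF12A, which leaves MMP1 under 2-fold, and those of SERPINE2 and GPC6 turned to -0.01 and -0.06. Centred in the same way, LR2 with ceritinib was below untreated LR2 for TNFRSF12A (-0.96), MMP1 (-0.57) and MMP10 (-0.49).

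A list of 18 genes that ERK signalling is known to induce, such as DUSP6, SPRY4 and PHLDA1, is given beside these values. Its median difference from untreated cells was -1.55 with crizotinib and -1.59 with ceritinib in parental cells, -1.48 with crizotinib and -0.06 with ceritinib in LR2, and -0.09 with ceritinib in LR3. SPRY4, PHLDA1 and SPRED1, feedback regulators and targets of that pathway, were called lower with crizotinib. Its part in the values of the 9 genes was not tested. Without centring, the differences of the 18 genes with ceritinib ran from -1.48 to 0.16 in LR2 and from -0.39 to 0.34 in LR3. TNFRSF12A was lower with ceritinib by 0.84 in LR2 and by 0.81 in LR3.

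A second limma fit, with a mean for each line with or without an inhibitor, tested the responses themselves. It called 0 of the 9 genes and 0% of all genes in each of 5 contrasts. At an unadjusted p under 0.05 there were 1849 genes for the response in parental cells, 1015 in LR2 and 499 in LR3, and 251 and 505 for the difference of LR2 and of LR3 from the parental response. The parental response was -1.85 ± 0.46 for TNFRSF12A, -1.53 ± 0.39 for MMP1, -1.45 ± 0.30 for PLAU and -1.28 ± 0.47 for MMP10, with adjusted p-values of 0.162, 0.167, 0.147 and 0.261. PLAUR gave -1.11 ± 0.30, THBS1 -1.02 ± 0.13 and PLAT -0.64 ± 0.23, with adjusted p-values of 0.179, 0.142 and 0.243, and SERPINE2 and GPC6 gave -0.05 ± 0.14 and 0.15 ± 0.10. In LR2 the response was -1.45 ± 0.46 for TNFRSF12A, -1.0 ± 0.47 for MMP10, -0.96 ± 0.39 for MMP1, -0.69 ± 0.30 for PLAU, -0.62 ± 0.23 for PLAT, -0.47 ± 0.30 for PLAUR, -0.10 ± 0.13 for THBS1, -0.02 ± 0.14 for SERPINE2 and 0.53 ± 0.10 for GPC6, with adjusted p-values from 0.485 to 0.982. In LR3 it is the single ceritinib difference, -0.81 ± 0.53 for TNFRSF12A, -0.20 ± 0.34 for PLAUR, -0.07 ± 0.35 for PLAU and between 0.01 for MMP1 and 0.58 for PLAT in the other 6 genes (SERPINE2, GPC6, MMP10, THBS1, MMP1 and PLAT), with adjusted p-values of at least 0.965. The LR2 response exceeded the parental one by 0.93 ± 0.19 for THBS1, whose LR2 arrays are under the floor, 0.76 ± 0.42 for PLAU, 0.64 ± 0.42 for PLAUR, 0.57 ± 0.55 for MMP1, 0.40 ± 0.65 for TNFRSF12A, 0.38 ± 0.14 for GPC6, 0.28 ± 0.67 for MMP10, 0.03 ± 0.19 for SERPINE2 and 0.02 ± 0.32 for PLAT, with an adjusted p of 0.998 for each. Without the LR2 ceritinib array MMP10, TNFRSF12A, PLAT and SERPINE2 turned sign in this comparison. The LR3 response, ceritinib alone, exceeded the parental response by 1.54 ± 0.60 for MMP1, 1.49 ± 0.72 for MMP10, 1.38 ± 0.46 for PLAU and 1.35 ± 0.20 for THBS1, with an adjusted p of 0.91 for each. The others were 1.22 ± 0.34 for PLAT, 1.04 ± 0.70 for TNFRSF12A, 0.91 ± 0.45 for PLAUR, 0.15 ± 0.21 for SERPINE2 and -0.03 ± 0.15 for GPC6, with adjusted p-values from 0.91 to 0.988.

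LR3 and LR2 were also compared directly. MMP10, THBS1 and TNFRSF12A were called higher in LR3, 3 of 9 against 7.29% of all genes. The THBS1 call rests mostly on signals under the floor. GPC6, under the floor on both LR3 arrays, was called lower, 1 of 9 against 12.3% of all genes. MMP10 was 2.59-fold higher (1.37 ± 0.31, adjusted p = 0.0184) and THBS1 was called higher (fitted difference 1.01 ± 0.27, adjusted p = 0.0331). For THBS1, 4 of the 5 arrays compared lie under the floor. With signals under the floor set to it, THBS1 was 1.05-fold higher in LR3 over matched agents. The gene passed the filter through the parental arrays and the LR3 ceritinib array. The MMP10 call was lost without the untreated LR2 array (1.45, adjusted p = 0.0671), without the agent term (1.72, 0.0582) and with the matched arrays alone (1.24, 0.0525). It was also lost without the parental or the LR2 crizotinib array (1.24 for each), which leaves 1 crizotinib array. The same held without the LR3 ceritinib array (0.85), which leaves 1 LR3 array. The THBS1 call was lost without the parental or the LR2 crizotinib array (1.04, adjusted p = 0.0853 for each), the untreated or the ceritinib array of LR2 (0.84 and 1.10, 0.158 and 0.0879) or the LR3 ceritinib array (0.57, 0.308). The differences were not called for PLAU (0.30 ± 0.27), PLAUR (-0.18 ± 0.21), PLAT (-0.51 ± 0.22), MMP1 (0.25 ± 0.30) or SERPINE2 (0.22 ± 0.08).

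The members did not vary alike over the 8 arrays. PLAU, MMP1 and TNFRSF12A followed each other, with Pearson correlations of 0.99 for PLAU with MMP1, 0.92 for PLAU with TNFRSF12A and 0.91 for MMP1 with TNFRSF12A. SERPINE2 and THBS1 (0.87), SERPINE2 and PLAT (0.78) and SERPINE2 and GPC6 (0.78) were the highest correlations of SERPINE2. GPC6 was at -0.38 with TNFRSF12A and -0.25 with MMP1. The 8 arrays share their lines and agents, so these values describe the arrays.

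Among genes outside the 9, GOT1, a transaminase, was most like PLAU (r = 0.993 over 8 arrays), followed by MICAL2 and PMAIP1, and MICAL2, TXNDC9 and PMAIP1 were most like MMP1. PMAIP1, which encodes the BH3-only protein NOXA, gave 8.73, 7.52 and 7.61 in parental cells, 8.10, 7.01 and 7.83 in LR2 and 8.22 and 7.97 in LR3. SRXN1, MAGOH and FABP5 were most like TNFRSF12A (0.989, 0.977 and 0.973). NSMCE3, ODC1 and SBDS were most like MMP10 (0.986, 0.983 and 0.971), and TEX30, TES and HYAL2 most like PLAUR (0.979, 0.975 and 0.975). GAL, ERH and CHURC1 were most like SERPINE2 (0.988, 0.988 and 0.987), and STARD3NL, ERCC3 and VGF most like THBS1 (0.993, 0.971 and 0.97). FAIM2, SHISA5 and the transcription factor ETS1 were most like PLAT (0.964, 0.959 and 0.958). GATM, BPIFB1 and PRXL2A were most like GPC6 (0.997, 0.992 and 0.992), and GATM, the first enzyme of creatine synthesis, gave 6.35, 6.50 and 6.52 in parental cells, 5.55, 5.74 and 5.82 in LR2 and 4.74 and 4.83 in LR3.

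Other genes of the same systems were counted in fixed lists that leave out the 9 members, to be read beside the shares over all genes, 9.68% lower and 12.8% higher in LR2 and 12.1% lower and 9.53% higher in LR3. Of 13 tested genes of the plasminogen system, 2 were lower and 2 higher in LR2, and 2 lower and 2 higher in LR3. SERPINF2, the plasmin inhibitor, was lower in both (-0.50 ± 0.07 and -0.71 ± 0.08), and ENO1, a plasminogen-binding glycolytic enzyme, was higher in both (0.30 ± 0.07 and 0.34 ± 0.09). The integrin subunits ITGA3 (-0.80 ± 0.10) and ITGAV (0.63 ± 0.09) were called in LR2, and the protease ST14 (-0.48 ± 0.08) and the plasminogen receptor PLGRKT (0.32 ± 0.09) in LR3. PLG itself was below the floor on every array. Neither agent gave a call in this list.

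Among 10 tested MMPs and their regulators, 3 were lower and 0 higher in each resistant line, and all of those called were inhibitors or the MMP inducer BSG. TIMP1, an inhibitor of MMPs, was lower by 1.32 ± 0.09 in LR2 and by 0.42 ± 0.10 in LR3. TIMP2 was lower by 0.52 ± 0.10 in LR2, with the untreated and crizotinib arrays of LR2 under the floor. BSG was lower by 0.36 ± 0.07 in LR2 and 0.56 ± 0.09 in LR3. TIMP3 was called lower in LR3 (fitted difference -1.27 ± 0.25). Both LR3 arrays, 4.37 and 4.59, lay under the floor, and TIMP3 passed the filter through the other lines. MMP3, the neighbour of MMP1 on chromosome 11, lay between 2.45 and 2.72 on all arrays, below the floor. MMP8, on the other side of MMP10, was also below it. The median differences of this list were -0.13 in LR2 and -0.01 in LR3.

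Of 15 tested glypicans, syndecans and heparan sulfate genes, 8 were lower and 1 higher in LR2, and 7 lower and 1 higher in LR3. The median difference was -0.28 in LR2 and -0.36 in LR3. GPC4, another glypican, was lower in both (-0.58 ± 0.11 and -0.86 ± 0.13), as were EXT2, which builds heparan sulfate chains (-0.52 ± 0.11 and -0.75 ± 0.13), and the heparanase HPSE (-0.86 ± 0.09 and -0.52 ± 0.11). SDC2, a syndecan, was called lower in LR3 (fitted difference -1.63 ± 0.13). Both LR3 arrays, 4.34 and 4.12, lay under the floor, and SDC2 passed the filter through the other lines. SDC1, the main epithelial syndecan, was higher in both (0.55 ± 0.07 and 0.28 ± 0.08). GPC5, which neighbours GPC6 on chromosome 13, lay below the floor on every array.

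The remaining lists held 6 or 7 tested genes each. Of 7 tested matricellular genes LTBP3 and FN1 were lower in both lines (LTBP3 by 0.68 ± 0.09 in LR2 and 0.35 ± 0.10 in LR3), and TGFBI and CD47, a receptor of thrombospondin-1, were higher in LR3. For FN1 both LR3 arrays lay under the floor (5.27 and 5.25), and the LR2 arrays lay at it or under it. THBS2, THBS3 and THBS4 were below the floor on every array. CCN2, chosen after its values were seen as the only gene of that list past 2-fold with an inhibitor, gave 7.15, 5.05 and 4.59 in parental cells, 6.35, 3.95 and 5.79 in LR2 and 7.49 and 7.49 in LR3. Of 6 tested genes of the TWEAK receptor pathway, TRAF3 was higher and RELB lower in LR2, and BIRC2 and RELB were lower in LR3. TNFSF12, which encodes the TWEAK ligand, was below the floor on every array. Of 6 tested ADAM proteases, ADAM10 and ADAM28 were lower in LR2, and ADAM15 was higher in LR3. ADAM28 lay under the floor on every LR2 array and passed the filter through the other lines.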

How the data were processed

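RNA of the 8 samples was measured on Affymetrix 3′ expression arrays after 3′ IVT amplification, per the labels' protocols. The authors deposited log2 signals per probe set, made with RMA, per the submitters' processing notes, and the RMA software, its version and the set of arrays normalized together are not given in the sources used here. Of 49395 probe sets, 44988 named 1 gene symbol in the platform annotation, 1832 several and 2473 none, and 102 controls were left out. The probe set of highest average signal stood for each gene, and 10527 genes were tested because they passed 5.36, the 50th percentile of all values, on at least 2 arrays. limma 3.58.1 in R 4.3.3 (lmFit, eBayes) fitted line plus agent to the 8 arrays (3 residual degrees of freedom), and a second fit used 6 means of line with or without inhibitor (2 residual degrees of freedom). P-values were Benjamini-Hochberg adjusted over all genes tested, with a threshold of 0.05, and both fits were tested on simulated data. The number of arrays limits the precision.

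The members and gene lists were chosen with earlier results of these data known. The text names all 9 members in every comparison, at most 6 called genes per list, and for each member the 3 other genes with the highest Pearson correlation. The lists were the plasminogen system, MMPs and inhibitors, ADAM proteases, matricellular proteins, proteoglycans, the TWEAK receptor pathway, ERK output genes and markers of epithelial cells, fibroblasts, leukocytes and endothelium. Sequences came from RefSeq (GRCh38.p14), 250 bases before each start. Alternatives were quantile normalization, array centring, no filter or a stricter one, other choices of probe set, an intensity trend in the prior, other agent terms, matched arrays alone and leaving out each array. Folds with signals under the floor set to the floor were added after seeing the data.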

Additional observations from a re-analysis of the deposited data

Results flagged for a closer look

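For 4 genes, ceritinib differed from crizotinib in opposite directions in parental cells and in LR2, with 1 array per condition, and these differences between lines were not tested. PLAU was lower with ceritinib than with crizotinib by 0.07 in parental cells and higher by 0.76 in LR2, a difference between lines of 0.83. MMP1 gave -0.04 in parental cells and 1.02 in LR2, a difference of 1.06. MMP10 gave -0.02 and 1.25, a difference of 1.27, with the LR2 crizotinib array below the floor. THBS1 gave -0.14 and 0.21, a difference of 0.35, with both LR2 arrays below the floor. The parental differences are small, and the LR2 ceritinib array has a median 0.12 above the other LR2 arrays. After each array was centred on its median the LR2 values were 0.64 for PLAU, 0.90 for MMP1, 1.13 for MMP10 and 0.09 for THBS1, so each kept its sign.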

How the results depend on the processing

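With 1 array per condition, the calls near the threshold depend on single arrays. Leaving out each array in turn gave 3 to 9 called members for LR2 against parental cells, 3 to 7 for LR3 against parental cells, 1 to 5 for LR3 against LR2, 0 to 6 for crizotinib against none and 0 to 5 for ceritinib against crizotinib. Requiring every array above the floor, which removes members from the test, gave 2, 1 and 1 called members in the 3 line comparisons, 4 for crizotinib and 1 for ceritinib. Dropping the agent term gave 3 for LR2 (14% of all genes called) and 2 for LR3 against LR2 (14.9%), and matched arrays alone gave 0 for LR3 against parental cells (0%). The mean of all probe sets, with 7 members tested, gave 2 for LR3 against LR2 (23.1% of all genes called) and 3 for crizotinib (5.29%). Probe sets without shared-probe suffixes gave 2 for crizotinib (4.44%), and an intensity trend gave 5 for crizotinib (7.57%) and 1 for ceritinib (0.579%). Some settings use fewer genes or arrays, and the cause of these shifts was not tested. The other counts kept their side.

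All differences that reversed were uncalled in the fit of all arrays, and 1 of them passed the threshold after reversing: MMP1 in LR3 without the parental ceritinib array (-0.50, adjusted p = 0.0333). With 1 array left out, PLAU ranged from -0.62 to 0.06 in LR2, from -0.42 to 0.47 in LR3 and from -0.11 to 0.71 for LR3 against LR2. MMP1 ranged from -0.65 to 0.06, from -0.50 to 0.53 and from -0.25 to 0.76 in the same comparisons. MMP10 in LR3 ranged from -0.73 to 0.32, and gave 0.15 without the agent term and 0.02 with inhibitor or none as 1 term. For LR3 against LR2, PLAUR ranged from -0.38 to 0.05, with 0.05 without the agent term, and PLAT from -1.03 to 0.01. For ceritinib, PLAT ranged from -0.45 to 0.10 and THBS1 from -0.54 to 0.11, and SERPINE2 gave -0.05 from probe sets without shared-probe suffixes. THBS1 with crizotinib ranged from -0.59 to 0.02, and the parental response of SERPINE2 from -0.17 to 0.07. The LR2 response ranged from -0.07 to 0.04 for SERPINE2 and from -0.20 to 0.01 for THBS1. The LR2 minus the parental response ranged from -0.09 to 0.15 for SERPINE2, from -0.24 to 0.28 for PLAT, from -0.34 to 0.91 for MMP10 and from -0.20 to 1.01 for TNFRSF12A, and gave -0.03 for SERPINE2 under quantile normalization and -0.02 for PLAT under array centring. Ceritinib against crizotinib for GPC6 ranged from -0.09 to 0.11, with -0.03 under quantile normalization and -0.04 under centring. In LR3 the response was 0.03 for PLAU by the mean of all probe sets and -0.03 for MMP1 under centring. The labels carry no shared replicate numbers. Lines are matched by agent, which the additive model uses as its block, and matched arrays alone gave 5 called members for LR2 against parental cells (20.1% of all genes called).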
